A study of Mus musculus with 18 samples.

Results

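The 37 genes encoded by the mouse mitochondrial genome were followed through 18 RNA-sequencing libraries of hepatocytes treated with an siRNA against Ttr and with oligonucleotides made to reverse it. They were taken as all genes whose symbol begins with mt- in the annotation of the build NCBIM37, and all 37 were found by Ensembl identifier among the 37991 genes of the deposited count files. They comprise 2 ribosomal RNAs, 13 messenger RNAs and 22 transfer RNAs. The cells were primary hepatocytes from male CD-1 mice, an outbred stock, bought cryopreserved and ready to plate, and the labelled starting material was total RNA. Each group held 3 libraries. One group received the siRNA alone, a small interfering RNA that silences Ttr, the gene of the secreted carrier protein transthyretin. Others received the scrambled REVERSIR alone or the TTR REVERSIR alone, a REVERSIR being a short synthetic oligonucleotide meant to pair with the guide strand of an siRNA and so lift its silencing. The combined groups received the siRNA together with the scrambled REVERSIR (siRNA + scrambled REVERSIR) or with the TTR REVERSIR (siRNA + TTR REVERSIR), and the control group received PBS, the vehicle, alone. The labels used here give no doses, times or order of dosing, and do not say whether replicate libraries stem from different cultures, so p-values measure the spread between these libraries, which may be technical.

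The mitochondrial genome is a small circle that is transcribed from both strands into long precursors. Transfer RNAs lie between most of the ribosomal and messenger RNAs, and cutting them out releases the RNAs on either side. One of these precursors carries both ribosomal RNAs and nearly all messenger RNAs, and the other, read in the opposite direction, carries mt-Nd6 as its single messenger RNA. The messenger RNAs encode subunits of the respiratory chain complexes and of ATP synthase, all made on the ribosome of the mitochondrion. In hepatocytes, which are rich in mitochondria, these transcripts are abundant, and their share of a library is often read as a measure of cell state or of RNA handling.

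Library totals ran from 1755819 to 10145265 counts. Ttr averaged 243 ± 19.1 CPM with the siRNA (CPM, the count relative to the TMM-scaled library total, times 1000000; SD, n = 3 in each group), 1118 ± 47.6 CPM with the scrambled REVERSIR, 1265 ± 157 CPM with the TTR REVERSIR, 226 ± 0.691 CPM with siRNA + scrambled REVERSIR and 1054 ± 112 CPM with siRNA + TTR REVERSIR, against 1111 ± 96.8 CPM with PBS. The targeted gene thus went with the labels. Summed over 12 hepatocyte markers, among them Alb and Apob, levels were 49426 to 64391 CPM. Marker sums of Kupffer cells and macrophages (281 to 387 CPM), liver endothelium (46.5 to 67.1 CPM), stellate cells and fibroblasts (120.4 to 162 CPM) and cholangiocytes (10.8 to 16.9 CPM) were low in all 18 libraries. In what follows, PBS replicates 1 and 2 lay far from the remaining 16 libraries: all mitochondrial genes together held 25.9% and 25.7% of their counts, against 3.15% to 11.1% in the others, PBS replicate 3 included. The main comparisons with PBS are therefore also given with PBS replicate 3 as the only control, an alternative chosen after seeing the data. In bulk RNA, fewer mitochondria or cells cannot be told apart from less RNA in each.

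Counts were confined to 21 of the 37 genes, and 16 were at 0 in all 18 libraries. Over all libraries the ribosomal RNAs held 7320769 counts, the messenger RNAs 1599325 and the transfer RNAs 1152. Both ribosomal RNAs were counted in every library. So were 7 of the 13 messenger RNAs, namely mt-Nd1, mt-Nd2, mt-Nd4, mt-Nd5 and mt-Nd6, which encode subunits of NADH dehydrogenase (complex I), mt-Co1, the catalytic subunit of cytochrome c oxidase (complex IV), and mt-Cytb, the cytochrome b of complex III. The other 6 were at 0: mt-Co2 and mt-Co3 of cytochrome c oxidase, mt-Atp6 and mt-Atp8 of ATP synthase, and mt-Nd3 and mt-Nd4l of complex I. These subunits are essential parts of the respiratory chain and of ATP synthase, and a 0 here is a statement on the count, not on the RNA in the cell. A count of 0 allows a level of up to 0.296 CPM (unscaled) in the deepest library and up to 1.71 in the shallowest (3 counts of the total, counting error only).

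The 6 uncounted messenger RNAs lie side by side on the mitochondrial genome, in a stretch that chromosome 1 of the same reference build also holds. The stretch chrM:6390-11042 aligned to chr1:24618374-24623027 on the minus strand over 4654 columns, of which 4651 were identical (99.936%). All 11 mitochondrial genes wholly inside it were at 0 in every library: the 6 messenger RNAs and the transfer RNA genes mt-Ts1, mt-Td, mt-Tk, mt-Tg and mt-Tr. The 2 genes partly inside, mt-Co1 and mt-Nd4, together held 1203336 counts. Of the 24 genes outside it, 5 were at 0, all of them transfer RNA genes.

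The edge of the copy lies within mt-Co1 (chrM:5328-6872), and 50 bases across it are printed for both chromosomes, each 5′ to 3′ on the coding strand of mt-Co1, with the part that is aligned in capitals. Outside the edge 9 of 25 bases were the same, and inside it 24 of 25, the exception being A6393T (mitochondrial base, position on chrM, chromosome 1 base).
chrM:6365-6414, plus strand: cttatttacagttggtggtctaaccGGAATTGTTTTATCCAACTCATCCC
chr1:24623003-24623052, minus strand: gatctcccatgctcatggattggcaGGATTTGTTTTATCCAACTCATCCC
The other substitution in the whole alignment, T9461C, is the third base of mt-Nd3 (chrM:9459-9806). It is printed in capitals within 50 bases that are otherwise the same, which shows how little tells this uncounted gene from its nuclear copy.
chrM:9437-9486, plus strand: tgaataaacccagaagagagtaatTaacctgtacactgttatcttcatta
chr1:24619931-24619980, minus strand: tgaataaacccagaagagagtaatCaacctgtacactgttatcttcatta
The remaining difference is 1 gap within mt-Tr. These letters are those of the reference build, and the sequence of the CD-1 cells themselves was not read.

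Across the whole mitochondrial genome, 5818 of 16250 windows of 50 bases (35.8%) occur letter for letter on another sequence of the build, on either strand. Windows of 75 and 100 bases gave 32.2% and 29.6%. Among the uncounted messenger RNAs the share of such windows was 99.0% for mt-Nd3 and 100% for mt-Co2, mt-Atp8, mt-Atp6, mt-Co3 and mt-Nd4l. Among the counted ones it was 0% for mt-Nd1, mt-Nd6 and mt-Cytb, 7.61% for mt-Nd5, 8.29% for mt-Nd2, 51.1% for mt-Co1 and 62.2% for mt-Nd4. Of the ribosomal RNAs, mt-Rnr1 shared no window and mt-Rnr2 shared 6.13%. The labels used here state neither the read length nor the handling of reads with several matches, and their part in the zeros was not tested. The annotated genes on the chromosome 1 copy drew few counts: Gm10222 had 73 over all 18 libraries and at most 7 in any, and Gm10925 had 16 and at most 4.

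**Figure D1:**
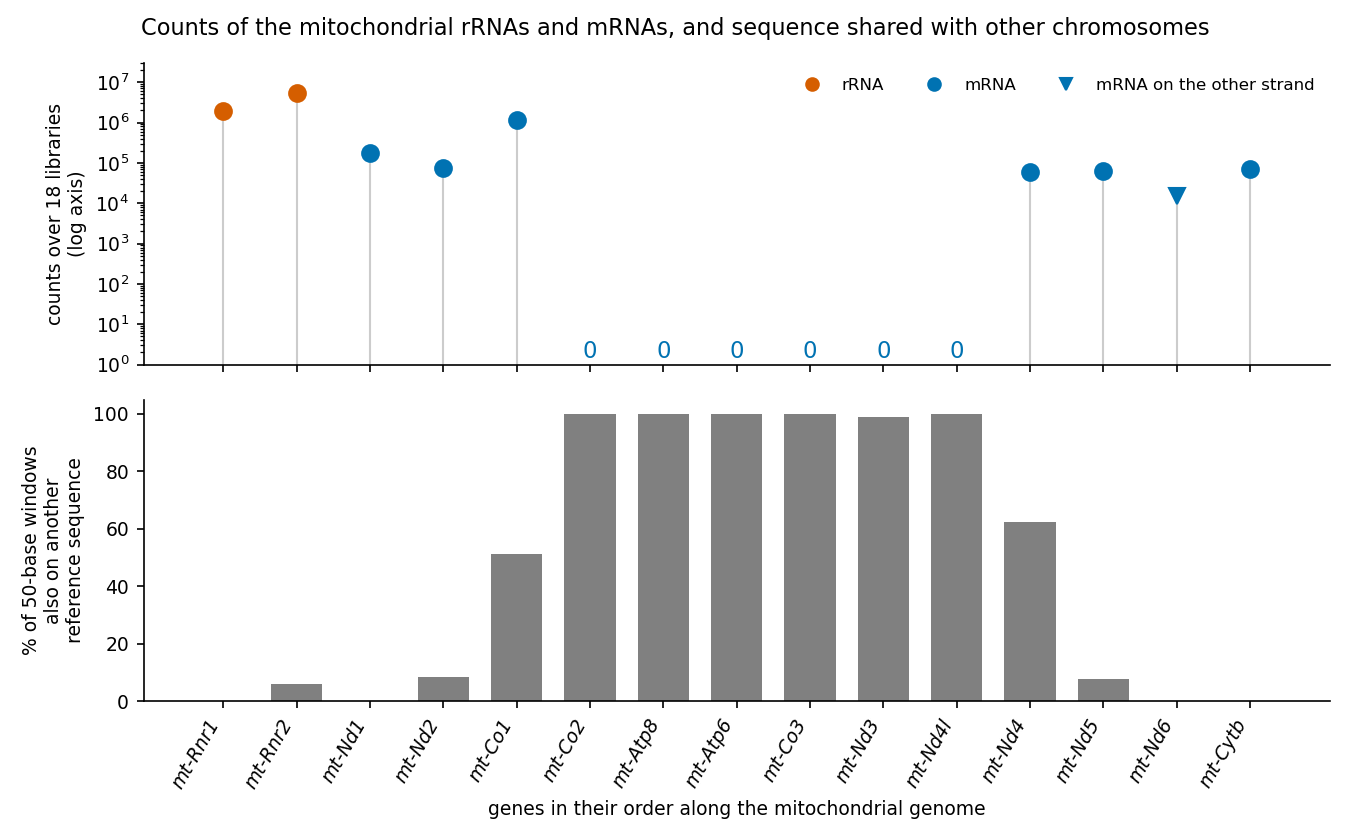
Total counts over 18 libraries (top, log axis, genes at 0 written as 0) and percent of 50-base windows that also occur on another reference sequence (bottom), for the 2 ribosomal RNAs and 13 messenger RNAs in their order along the mitochondrial genome. The 6 genes at 0 are adjacent and have 99.0% to 100% shared windows, against 0% to 62.2% for the counted genes.

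Neighbouring mitochondrial genes abut or overlap, which sets how far their counts can be kept apart. The junction of mt-Rnr2 (chrM:1094-2675), mt-Tl1 (chrM:2676-2750) and mt-Nd1 (chrM:2751-3707) leaves no base between genes, and it is printed with the transfer RNA gene mt-Tl1 in capitals.
chrM:2656-2770, plus strand: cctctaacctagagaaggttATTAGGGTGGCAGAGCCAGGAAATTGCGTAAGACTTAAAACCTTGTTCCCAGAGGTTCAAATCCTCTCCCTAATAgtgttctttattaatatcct
mt-Tl1 itself had 1 count in all 18 libraries, with 5338797 on its left in mt-Rnr2 and 171240 on its right in mt-Nd1. On opposite strands, mt-Nd5 (chrM:11742-13565, plus) and mt-Nd6 (chrM:13552-14070, minus) share the 14 bases in capitals.
chrM:13534-13583, plus strand: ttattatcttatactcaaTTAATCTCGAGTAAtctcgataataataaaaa
The strand of counting is not stated, so where genes overlap or where antisense RNA of one strand covers a gene of the other, the counts of mt-Nd5, mt-Nd6 and of the 9 minus-strand genes as a whole are uncertain.

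Per length of gene, ribosomal RNA was highest and mt-Nd6 lowest. The median level over 18 libraries was 23042 CPM per kb for mt-Rnr2 and 11080.5 CPM per kb for mt-Rnr1. Among messenger RNAs it was 7006 CPM per kb for mt-Co1, 1758 for mt-Nd1, 718 for mt-Nd2, 637 for mt-Cytb, 437 for mt-Nd4, 347 for mt-Nd5 and 275 for mt-Nd6. In that order mt-Rnr2 was above mt-Rnr1, mt-Co1 above mt-Nd1, mt-Nd1 above mt-Nd2, mt-Cytb above mt-Nd4 and mt-Nd4 above mt-Nd5 in 18 of 18 libraries. The close neighbours were mt-Nd2 over mt-Cytb, higher in 17 of 18, mt-Nd5 over mt-Nd6, higher in 16 of 18, and mt-Rnr1 over mt-Co1, higher in 13 of 18.

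The order depended in part on the length used. When each level was divided by the number of 50-base windows found only on the mitochondrial genome, mt-Co1 had a median of 14808 CPM per 1000 windows and moved above mt-Rnr1 at 11679.8 in 12 of 18 libraries. On the same scale mt-Nd4, at 1199, moved above mt-Nd2, at 822, in 18 of 18. By counts alone mt-Co1 held 66.5% to 75.2% of the messenger RNA counts of a library, mt-Nd1 9.63% to 11.97% and mt-Nd6 0.337% to 1.30%. mt-Nd5 held 3.14% to 5.19%, with PBS replicates 1 and 2 inside that range. mt-Nd6 and mt-Cytb were lowest in PBS replicates 1 and 2 (0.337% and 0.379% for mt-Nd6, 3.10% and 3.70% for mt-Cytb) and were 0.776% to 1.30% and 3.93% to 5.13% in the other 16 libraries.

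Mitochondrial ribosomal RNA varied far more between libraries than mitochondrial messenger RNA did. Its share of all counts in replicates 1, 2 and 3 was 8.39%, 2.07% and 4.57% with the siRNA. It was 5.18%, 4.06% and 4.41% with the scrambled REVERSIR, and 1.69%, 9.13% and 5.84% with the TTR REVERSIR. The combined groups had 9.56%, 2.34% and 2.69% with siRNA + scrambled REVERSIR, and 2.05%, 4.73% and 6.69% with siRNA + TTR REVERSIR. PBS had 24.3%, 24.1% and 5.45%. Of the treated groups, the scrambled REVERSIR was the tightest, while the others spread over a range that covers each other and PBS replicate 3. The 95% Wilson intervals of these shares, which cover counting error only, were at most 0.0758 percentage points wide, so the spread within groups was far beyond counting error.

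Against PBS the mean log2 share of ribosomal RNA differed by −1.78 with the siRNA, −1.70 with the scrambled REVERSIR, −1.72 with the TTR REVERSIR, −1.91 with siRNA + scrambled REVERSIR and −1.87 with siRNA + TTR REVERSIR. In the scrambled REVERSIR group all 3 libraries lay below all PBS libraries (exact two-sided permutation test, p = 0.1, the smallest that 3 against 3 allow). The other 4 groups overlapped PBS through its replicate 3 (exact permutation p = 0.2, 0.3, 0.2 and 0.2 in that order), and over the 15 tests of shares and ratios against PBS no adjusted p was under 0.273. Against PBS replicate 3 alone the same differences were −0.34, −0.27, −0.28, −0.48 and −0.44.

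The 7 counted messenger RNAs of the mitochondrion together held a narrow and nearly constant share, 1.37% to 1.75% of all counts. The 6 uncounted ones are missing from this share and from the ratio below. Of the messenger RNA counts of a library, mt-Co1 alone made up 66.5% to 75.2%. Replicates 1, 2 and 3 had 1.37%, 1.48% and 1.55% with the siRNA, 1.56%, 1.70% and 1.63% with the scrambled REVERSIR, and 1.46%, 1.52% and 1.47% with the TTR REVERSIR. They had 1.51%, 1.66% and 1.55% with siRNA + scrambled REVERSIR, and 1.70%, 1.69% and 1.75% with siRNA + TTR REVERSIR. PBS libraries had 1.54%, 1.58% and 1.62%, so PBS replicates 1 and 2, which stood apart in ribosomal RNA, did not stand apart here. The TTR REVERSIR libraries all lay below the PBS libraries (log2 difference −0.09) and the siRNA + TTR REVERSIR libraries all lay above them (0.12), each with exact permutation p = 0.1 and adjusted p = 0.273. The siRNA, scrambled REVERSIR and siRNA + scrambled REVERSIR groups overlapped PBS, with log2 differences of −0.11, 0.05 and −0.01. Against PBS replicate 3 alone the differences were −0.14 with the siRNA, 0.0090 with the scrambled REVERSIR, −0.13 with the TTR REVERSIR, −0.046 with siRNA + scrambled REVERSIR and 0.079 with siRNA + TTR REVERSIR.

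A share of all counts falls when another class takes more of the library, so the messenger RNAs were also set against nuclear protein-coding counts. These were 86.2% to 95.1% of the treated libraries, and 72.4%, 71.3% and 89.7% of the PBS libraries. Per 100 nuclear protein-coding counts, mitochondrial messenger RNA averaged 1.62 ± 0.0846 with the siRNA, 1.79 ± 0.0636 with the scrambled REVERSIR, 1.63 ± 0.113 with the TTR REVERSIR, 1.73 ± 0.0620 with siRNA + scrambled REVERSIR and 1.89 ± 0.0920 with siRNA + TTR REVERSIR, against 2.05 ± 0.216 with PBS (SD, n = 3 each). On this scale PBS replicates 1 and 2 were the highest of all 18 libraries, at 2.13 and 2.22, and PBS replicate 3 was at 1.81, inside the range of the treated libraries. The differences from PBS of the scrambled REVERSIR and siRNA + TTR REVERSIR groups changed sign, to −0.19 and −0.12.

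The ratio of ribosomal to messenger RNA counts followed the ribosomal RNA. In replicates 1, 2 and 3 it was 6.11, 1.40 and 2.94 with the siRNA, 3.31, 2.38 and 2.70 with the scrambled REVERSIR, and 1.16, 6.02 and 3.97 with the TTR REVERSIR. It was 6.34, 1.41 and 1.74 with siRNA + scrambled REVERSIR, 1.21, 2.79 and 3.82 with siRNA + TTR REVERSIR, and 15.8, 15.2 and 3.36 with PBS. Thus 2 PBS libraries were well above the rest, and PBS replicate 3 lay among the treated ones. The log2 differences from PBS ran from −1.99 to −1.62 with exact permutation p of 0.1 to 0.3 (adjusted p at least 0.273), and from −0.52 to −0.15 against PBS replicate 3 alone.

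**Figure D2:**
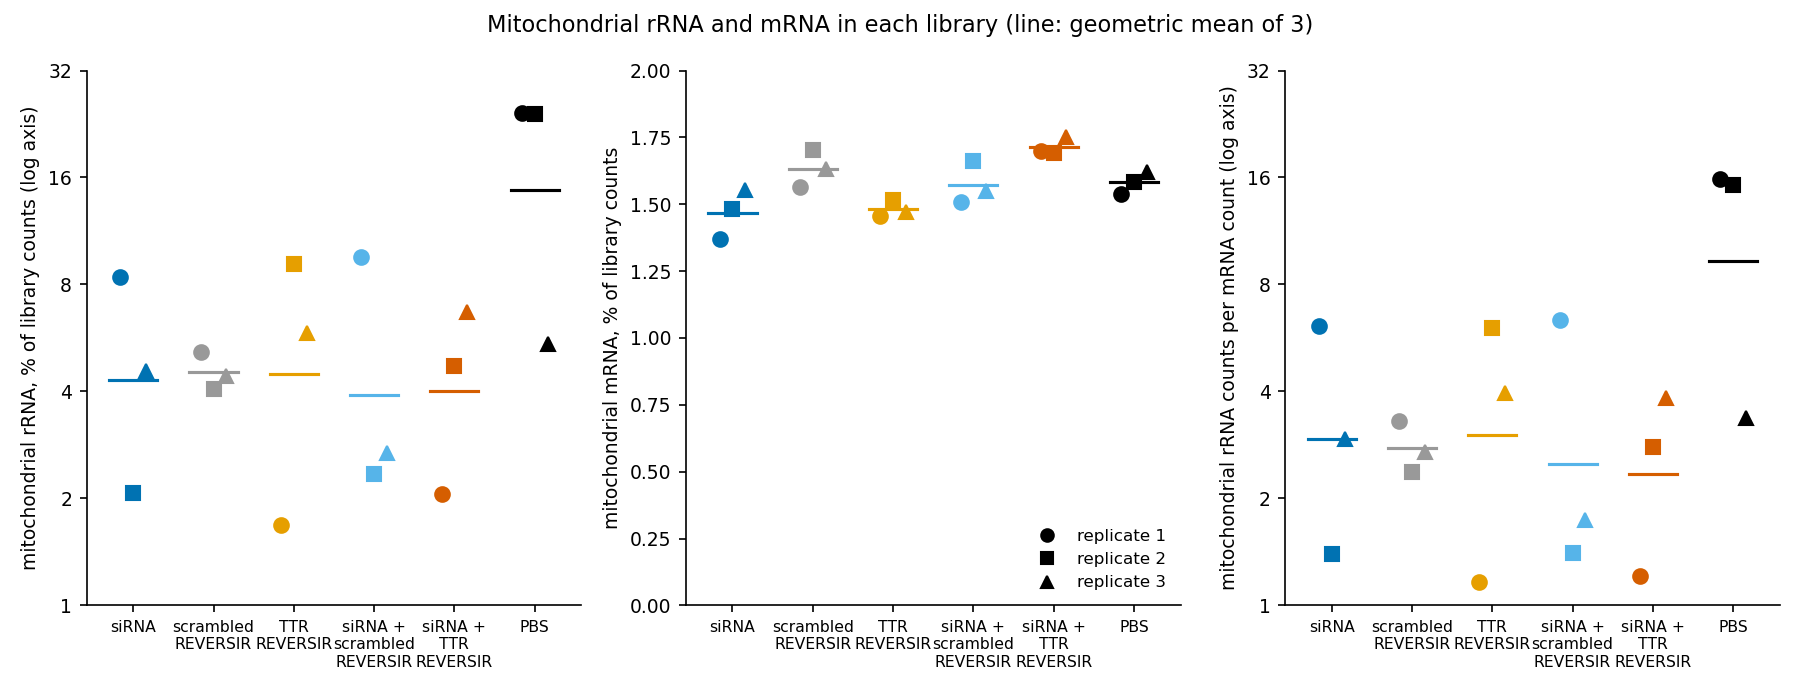
Mitochondrial ribosomal RNA as percent of library counts (left, log axis), messenger RNA as percent of library counts (middle) and their ratio (right, log axis), with 1 point per library, marker shape for the replicate and a line at the geometric mean of 3. PBS replicates 1 and 2 sit at 24.3% and 24.1% ribosomal RNA, above the 1.69% to 9.56% of the other 16 libraries. Messenger RNA, the sum of the 7 counted genes, stays between 1.37% and 1.75% throughout.

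Of the 37 genes, 12 passed the filter on low counts: both ribosomal RNAs, the 7 counted messenger RNAs, and the transfer RNA genes mt-Ti, mt-Tw and mt-Tp. They were tested in an edgeR quasi-likelihood fit of all 18 libraries, with Benjamini-Hochberg adjustment over 11153 genes and a threshold of 0.05. With the siRNA, 4 of the 12 were lower than with PBS, all messenger RNAs, where 1.60% of all genes tested were called lower and 1.01% higher. With the TTR REVERSIR 1 of the 12 was lower, where 0.359% of all genes were called lower and 0.699% in either direction. At an unadjusted p under 0.05 the members counted 7 of 12 with the siRNA and 8 of 12 with the TTR REVERSIR, where 20.1% and 16.4% of all genes had such a p.

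mt-Co1 was the gene called in both comparisons. It had 9744, 10263 and 10261 CPM with the siRNA, and 10212, 10178 and 10628 CPM with the TTR REVERSIR, against 15393, 15185 and 10834 CPM with PBS. The libraries of both treatments lay below all PBS libraries, as for 9.93% (siRNA) and 6.38% (TTR REVERSIR) of all genes tested, and PBS replicate 3 was close to them. The log2 fold change was −0.45 (SE 0.09, adjusted p = 0.0163 by edgeR) with the siRNA and −0.42 (SE 0.09, adjusted p = 0.0357) with the TTR REVERSIR. Against PBS replicate 3 alone it was −0.10 and −0.06.

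The other genes called with the siRNA encode subunits of complex I. mt-Nd2 had 641, 584 and 673 CPM with the siRNA, against 967, 1034 and 758 CPM with PBS (log2 fold change −0.54, SE 0.12, adjusted p = 0.0237 by edgeR). mt-Nd4 had 467, 461 and 608 CPM with the siRNA, against 728, 807 and 678 CPM with PBS (−0.52, SE 0.13, adjusted p = 0.0332). mt-Nd1 had 1476, 1449 and 1602 CPM with the siRNA, against 1997, 2171 and 1837 CPM with PBS (−0.41, SE 0.11, adjusted p = 0.0407). In each of them all siRNA libraries lay below all PBS libraries, as for 9.93% of all genes tested, and PBS replicate 3 was the lowest PBS library. When PBS replicate 3 was the only control, the log2 fold changes were −0.25, −0.40 and −0.28. Without PBS replicate 1 or PBS replicate 2, 0 mitochondrial genes were called in each of the 5 comparisons. Calls over all genes fell there too, to 0 to 5, and with the siRNA from 292 to 1 and 2. With the compared groups fitted alone, the siRNA and the TTR REVERSIR had 0 mitochondrial calls, beside 1 and 0 of all genes tested. With library totals as the scale, the messenger RNA calls with the siRNA and the TTR REVERSIR were also lost. The median log2 fold change of all genes was 0.33 and 0.31 on that scale.

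The remaining messenger RNAs of that strand did not pass. mt-Nd5, of complex I, had 526, 481 and 666 CPM with the siRNA, against 834, 869 and 752 CPM with PBS (−0.55, adjusted p = 0.0534 by edgeR, and −0.42 against PBS replicate 3 alone), and again no library of one group reached the other. mt-Cytb had 663, 595 and 701 CPM with the siRNA, against 639, 774 and 803 CPM with PBS (−0.18, adjusted p = 0.364 by edgeR, and −0.29 against PBS replicate 3 alone), and its PBS replicate 1 was among the siRNA libraries.

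Single treated libraries moved these counts too. Without siRNA replicate 1 or 2, 0 of the 12 were called with the siRNA, beside 62 and 12 of all genes tested. Without its replicate 3, 1 gene was called, mt-Nd4, beside 0.392% of all genes. Without TTR REVERSIR replicate 1 or 3, 0 of the 12 were called with the TTR REVERSIR, beside 0 and 1 of all genes tested. Without its replicate 2, 7 of the 12 were called, beside 3.29% of all genes. Without PBS replicate 3, by contrast, 8, 5, 9, 6 and 4 of the 12 were called with the siRNA, the scrambled REVERSIR, the TTR REVERSIR, siRNA + scrambled REVERSIR and siRNA + TTR REVERSIR. Calls over all genes were also more numerous there, at 1365, 749, 978, 1142 and 1151 of 11419 genes in the same order.

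By edgeR with TMM scaling no member passed with the scrambled REVERSIR, siRNA + scrambled REVERSIR or siRNA + TTR REVERSIR, where 0.421%, 0.610% and 0.789% of all genes were called. At an unadjusted p under 0.05 the counts were 6, 9 and 5 of 12, where 14.7%, 17.7% and 17.7% of all genes had such a p, and DESeq2 called 1, 2 and 2, beside 1.67%, 1.91% and 2.06% of all genes. With the siRNA and the TTR REVERSIR, DESeq2 called 5 and 3 members, beside 3.80% and 1.45% of all genes. The median log2 fold change against PBS of the 6 counted messenger RNAs on the ribosomal RNA strand was −0.49 with the siRNA, −0.25 with the scrambled REVERSIR, −0.45 with the TTR REVERSIR, −0.35 with siRNA + scrambled REVERSIR and −0.20 with siRNA + TTR REVERSIR, beside medians of all genes of −0.01 to 0.00. These comparisons share the PBS libraries. Against PBS replicate 3 alone the same medians were −0.28, −0.07, −0.30, −0.17 and −0.03.

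The ribosomal RNAs had the largest fold changes of the 12 and did not pass by edgeR with TMM scaling. With library totals as the scale, edgeR called both in every comparison with PBS. DESeq2 called mt-Rnr1 lower in all comparisons with PBS but that of the TTR REVERSIR, and mt-Rnr2 lower with siRNA + TTR REVERSIR. mt-Rnr1, the RNA of the small ribosomal subunit, had 19238, 3307 and 10256 CPM with the siRNA and 11103, 9469 and 10523 CPM with the scrambled REVERSIR. It had 1783, 24572 and 9577 CPM with the TTR REVERSIR, 23743, 3734 and 5307 CPM with siRNA + scrambled REVERSIR, and 2426, 10640.4 and 14391 CPM with siRNA + TTR REVERSIR. PBS had 108396, 110215 and 14962 CPM, so its replicate 3 lay within the range of the treated libraries. The log2 fold changes were −3.09 to −2.70 with standard errors near 0.80, and adjusted p-values by edgeR were 0.0555 to 0.0960.

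mt-Rnr2, the RNA of the large subunit, behaved alike. It had 64227, 16196 and 32916 CPM with the siRNA and 39014, 30678 and 33036 CPM with the scrambled REVERSIR. It had 13971, 67479 and 47035 CPM with the TTR REVERSIR, 73339.7, 18343 and 19842 CPM with siRNA + scrambled REVERSIR, and 16726, 34703 and 50807 CPM with siRNA + TTR REVERSIR, against 217645, 207895 and 38201 CPM with PBS. All 5 treated groups overlapped PBS through its replicate 3. The log2 fold changes were −2.18 to −1.85 (adjusted p 0.0603 to 0.113 by edgeR), and −0.16 to 0.17 against PBS replicate 3 alone.

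**Figure D3:**
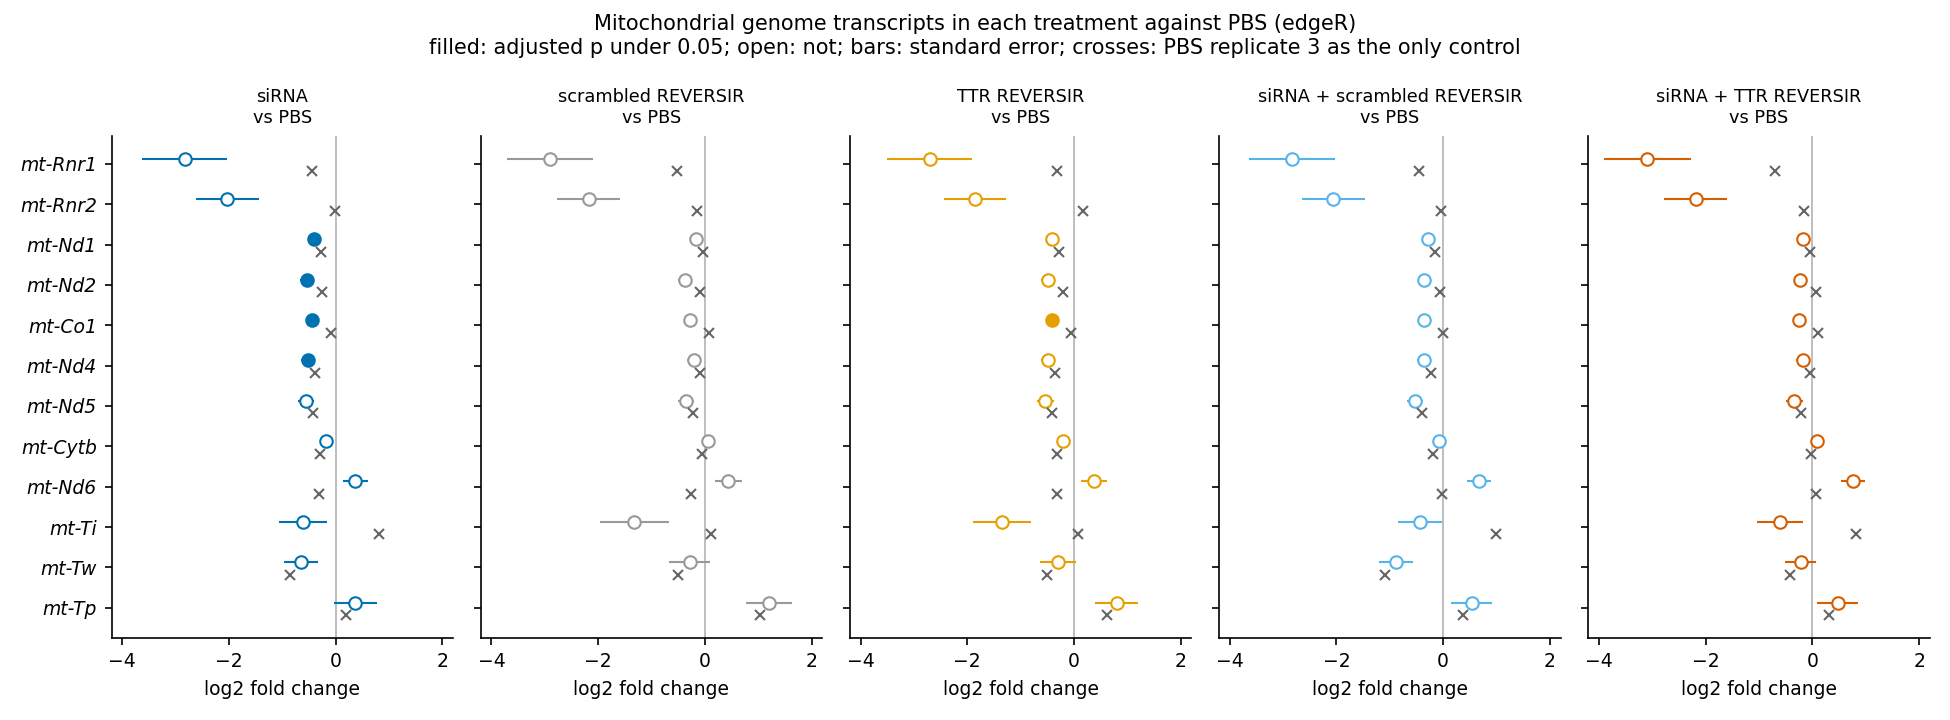
Log2 fold change against PBS for the 12 tested mitochondrial genes, 1 panel per treatment, with standard errors, filled points where the adjusted p was under 0.05, and crosses for the fit against PBS replicate 3 alone. The ribosomal RNAs lie at −3.09 to −1.85 in the fit of all libraries, and their crosses lie at −0.70 to 0.17.

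mt-Nd6, the messenger RNA of the opposite strand, went the other way. It had 135, 123 and 149 CPM with the siRNA, 119.6, 165 and 143 CPM with the scrambled REVERSIR, 114, 199 and 111 CPM with the TTR REVERSIR, 192, 177 and 131 CPM with siRNA + scrambled REVERSIR, and 143, 187 and 206 CPM with siRNA + TTR REVERSIR, against 69.4, 79.3 and 171 CPM with PBS. PBS replicates 1 and 2 were the lowest of all 18 libraries and PBS replicate 3 was within the treated range. Its log2 fold changes were 0.37 to 0.76 and did not pass (adjusted p 0.0916 to 0.482 by edgeR), and they were −0.33 to 0.07 against PBS replicate 3 alone. Per 1000 counts of the 6 counted messenger RNAs of the other strand, mt-Nd6 had 7.82 to 13.2 in the treated libraries, against 3.38, 3.81 and 10.9 in the PBS libraries.

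The balance of both ribosomal RNAs was higher in the PBS libraries than in the treated ones, by little for PBS replicate 3. The ratio of mt-Rnr1 to mt-Rnr2 counts was 0.128 to 0.364 in the 15 treated libraries, against 0.498, 0.530 and 0.392 in the PBS libraries, so all PBS libraries, replicate 3 included, lay above all treated ones. The log2 differences of this ratio from PBS were −0.81 with the siRNA, −0.63 with the scrambled REVERSIR, −1.15 with the TTR REVERSIR, −0.85 with siRNA + scrambled REVERSIR and −1.01 with siRNA + TTR REVERSIR. PBS replicate 3 alone, with the lowest ratio of the PBS libraries, would make each of them smaller. This ratio was examined after the values had been seen and is given with no test.

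Relations between libraries were computed on log2 values without PBS replicates 1 and 2, which form a cluster of their own, and 6 were computed in all. Levels of mt-Rnr1 and mt-Rnr2 varied together over the 16 libraries, with Pearson r = 0.961 and Spearman rho = 0.938 (permutation p = 1e-05 for each, the smallest that 100000 permutations can give, adjusted p = 6e-05), and r was 0.959 without the 2 libraries farthest from the median. The ribosomal RNA share and the ratio of mt-Rnr1 to mt-Rnr2, which both contain mt-Rnr1, had r = 0.768 (permutation p = 0.00056, adjusted p = 0.00168) and rho = 0.644 (permutation p = 0.00846, adjusted p = 0.0254). Without the 2 farthest libraries r was 0.606 and rho 0.468. Counts of mt-Rnr1 enter both values, and the permutation makes no allowance for that. The ribosomal RNA share and mt-Nd6 per 1000 counts of the other messenger RNAs had r = 0.502 and rho = 0.515 (permutation p = 0.0494 and 0.0440, adjusted p = 0.0988 and 0.0880), and r was 0.405 without 2 libraries. The last 2 relations were chosen after the values had been seen, so their p-values carry that choice and serve as description only.

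The ribosomal RNA share was not related to the messenger RNA share (r = −0.15, rho = −0.16, permutation p = 0.579 and 0.547, adjusted p = 0.695 and 0.656) or to the library total (r = −0.25, rho = −0.20, permutation p = 0.348 and 0.456, adjusted p = 0.523 and 0.656) beyond what permutation gave. The library total and the messenger RNA share over all 18 libraries had r = 0.06 and rho = 0.10 (permutation p = 0.811 and 0.677, adjusted p the same). Leaving out the 2 farthest libraries gave r of −0.24, −0.12 and 0.11 for these 3 relations.

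**Figure D4:**
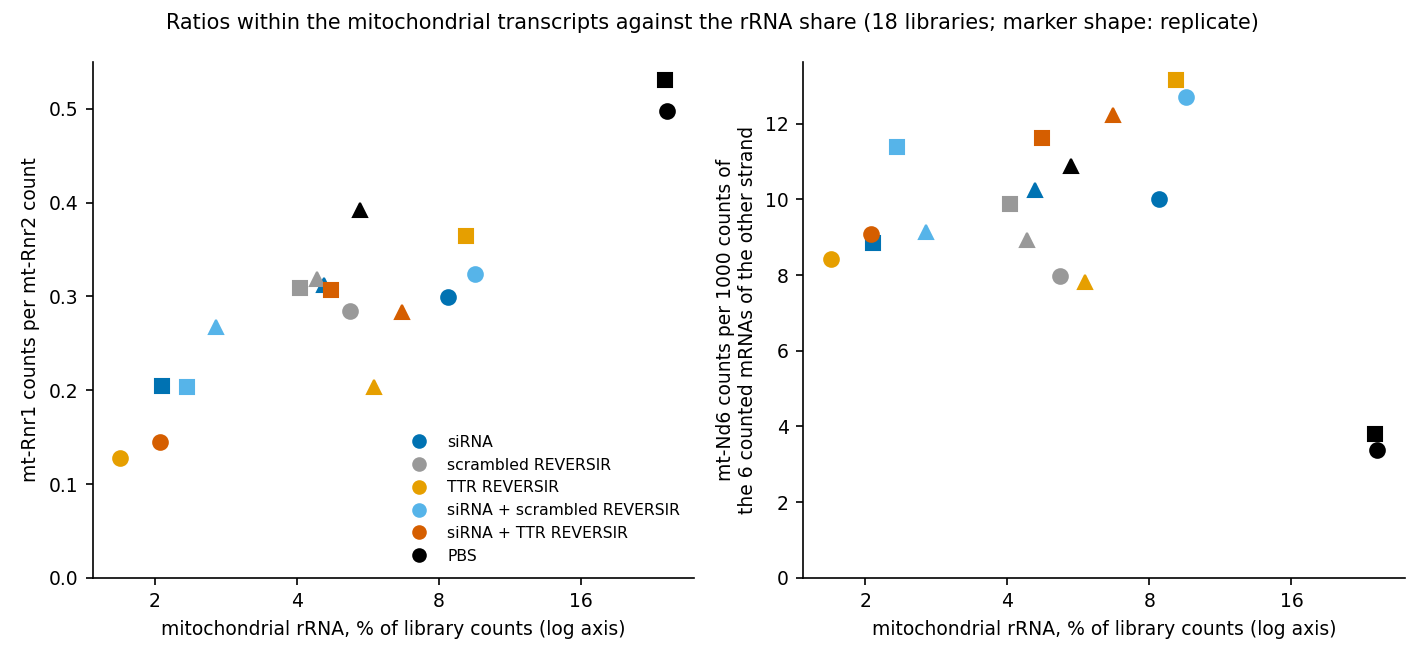
Ratio of mt-Rnr1 to mt-Rnr2 counts (left) and mt-Nd6 per 1000 counts of the 6 counted messenger RNAs of the other strand (right) against the ribosomal RNA share of the library (log axis), 1 point per library, coloured by group, with marker shape for the replicate. PBS replicates 1 and 2 lie at the far right of both panels, highest on the left at 0.498 and 0.530 and lowest on the right at 3.38 and 3.81.

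Transfer RNA genes were at the edge of detection, with 21 to 132 counts per library over all 22 genes. Counts above 0 were found for 12 of them, and mt-Tw, mt-Tp and mt-Ti held 380, 295 and 278 of the 1152. The others were mt-Tm with 94, mt-Tq with 40, mt-Te with 25, mt-Tt with 22, mt-Ta with 7, mt-Ty with 6, mt-Tv with 3, and mt-Tl1 and mt-Tc with 1 each, too few to compare. mt-Tw and mt-Ti share 2 bases with their neighbours mt-Nd2 and mt-Nd1, and mt-Tp (chrM:15356-15422) lies on the minus strand beyond mt-Cytb. mt-Tw was counted in every library, and all 18 of its 50-base windows also occur elsewhere in the build. These windows lie wholly within its 67 bases, so reads that run into its neighbours are not covered. mt-Tf, mt-Ts2 and mt-Tl2 were at 0 with no shared window. How shared sequence bears on these counts was not tested. None of the 3 tested transfer RNA genes passed against PBS by edgeR with TMM scaling. mt-Tp had log2 fold changes of 0.37 to 1.20, the highest with the scrambled REVERSIR, where 3.03, 5.13 and 6.18 CPM lay above the 2.58, 1.13 and 2.27 CPM of PBS, as for 7.30% of all genes tested (adjusted p = 0.199 by edgeR), and 1.03 was the log2 fold change against PBS replicate 3 alone.

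The comparisons that leave PBS out bear on the oligonucleotides themselves. By edgeR 0 of the 12 genes were called in any of these 6 comparisons, and DESeq2 called 0 as well. Of all genes tested, 0.00% were called in siRNA + scrambled REVERSIR over siRNA and in siRNA + TTR REVERSIR over TTR REVERSIR, 0.00897% in siRNA + TTR REVERSIR over siRNA and over siRNA + scrambled REVERSIR, and 0.0179% in both comparisons with the scrambled REVERSIR. At an unadjusted p under 0.05 the members counted 5 for siRNA + TTR REVERSIR over siRNA (5.98% of all genes), 4 for siRNA + TTR REVERSIR over TTR REVERSIR (4.44%), 3 for TTR REVERSIR over scrambled REVERSIR (7.33%) and 1 for siRNA + TTR REVERSIR over siRNA + scrambled REVERSIR (2.17%). They counted 0 for siRNA + scrambled REVERSIR over siRNA (3.72%) and over scrambled REVERSIR (6.22%). The median log2 fold change of the 6 messenger RNAs on the ribosomal RNA strand was 0.25 for siRNA + TTR REVERSIR over siRNA, 0.26 over TTR REVERSIR and 0.14 over siRNA + scrambled REVERSIR, and −0.21 for TTR REVERSIR over scrambled REVERSIR. For siRNA + scrambled REVERSIR it was 0.12 over siRNA, in the same direction as with the TTR REVERSIR, and −0.12 over scrambled REVERSIR.

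The share of mitochondrial messenger RNA separated several of these groups. The siRNA + TTR REVERSIR libraries (1.70%, 1.69% and 1.75%) lay above all libraries of siRNA alone (log2 difference 0.22), of siRNA + scrambled REVERSIR (0.13) and of the TTR REVERSIR alone (0.21). The TTR REVERSIR libraries (1.46%, 1.52% and 1.47%) lay below all scrambled REVERSIR libraries (−0.14). Each of these 4 differences had exact permutation p = 0.1, the smallest possible, and adjusted p = 0.45 over 18 tests. Per nuclear protein-coding count they were 0.22, 0.13, 0.21 and −0.13, the last with exact permutation p = 0.2. The shares of siRNA + scrambled REVERSIR overlapped those of siRNA alone (log2 difference 0.099) and of the scrambled REVERSIR alone (−0.055).

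The 2 REVERSIR oligonucleotides, which differ in sequence, thus differed in opposite directions with and without the siRNA. The log2 difference of TTR REVERSIR over scrambled REVERSIR was 0.13 in the presence of the siRNA and −0.14 in its absence, and these differ by 0.27. The contrast was chosen after the shares had been seen to separate in opposite directions. A permutation p-value for it would carry that choice, so none is given and the values are a description. Leaving out any of the 12 libraries in turn kept the value between 0.23 and 0.31, and per nuclear protein-coding count it was 0.26. For the ribosomal RNA share and for the ratio the same contrast was 0.05 and −0.21, and leaving out 1 library gave −0.65 to 0.69 and −0.91 to 0.46, so neither kept its sign. The size of the difference is small beside the spread of the ribosomal RNA, and depth differed between these groups: library totals averaged 7554506 with siRNA + TTR REVERSIR and 8078265 with siRNA + scrambled REVERSIR, and 4209323 with the TTR REVERSIR and 2403138 with the scrambled REVERSIR.

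The nuclear genes that copy, process and translate the mitochondrial genome were counted in the same fit. Of 23 tested genes of mitochondrial DNA maintenance and transcription, among them Polrmt, the RNA polymerase, and Tfam, which packages the genome and helps start transcription, 0 were called by edgeR in any comparison with PBS. Of all genes 0.421% to 2.62% were called there, so 0 calls in a list this short is close to those shares. At an unadjusted p under 0.05 they counted 0 to 2, where 14.7% to 20.1% of all genes had such a p, and their median log2 fold changes were −0.04 to 0.05. The 10 tested regulators of mitochondrial biogenesis also had 0 calls by edgeR, beside the same shares of all genes, with 0 to 2 at an unadjusted p under 0.05. The medians of the regulators were −0.13 to −0.03.

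Among 47 genes of mitochondrial RNA processing, stability and modification, 1 was lower with the siRNA, where 1.60% of all genes were called lower. With siRNA + scrambled REVERSIR 1 was lower too, where 0.610% of all genes were called in either direction. In a list of 47 genes, 1 call is not far from such shares. In both cases it was Rg9mtd1 (Trmt10c), a subunit of the enzyme that cuts mitochondrial transfer RNAs out of their precursors at the 5′ end. It had 57.1, 53.9 and 54.2 CPM with the siRNA and 58.2, 57.8 and 58.3 CPM with siRNA + scrambled REVERSIR, against 73.2, 73.0 and 71.6 CPM with PBS. All PBS libraries were above all libraries of both treatments, as for 9.93% and 9.67% of all genes tested, and PBS replicate 3 did not stand apart. The log2 fold changes were −0.40 (SE 0.07, adjusted p = 0.0108 by edgeR) and −0.32 (SE 0.07, adjusted p = 0.0254), and −0.37 and −0.30 with PBS replicate 3 as the only control, where neither passed. Scaling by library totals alone, which lifts the median of all genes by 0.33 and 0.32, left −0.08 and −0.01.

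Of 36 tested mitochondrial translation factors, 2 were higher with the siRNA, where 1.01% of all genes were called higher, and 1 with siRNA + TTR REVERSIR, where 0.789% of all genes were called in either direction. Tsfm, the mitochondrial elongation factor Ts, had 19.3, 17.1 and 17.9 CPM with the siRNA and 18.02, 15.3 and 16.5 CPM with siRNA + TTR REVERSIR, against 8.13, 7.43 and 11.8 CPM with PBS. Its log2 fold changes were 1.00 (SE 0.21, adjusted p = 0.0172 by edgeR) and 0.89 (SE 0.20, adjusted p = 0.0449), and 0.61 and 0.50 against PBS replicate 3 alone. Tars2, the mitochondrial threonyl-tRNA synthetase, had 41.1, 49.1 and 46.9 CPM with the siRNA, against 35.7, 33.6 and 39.1 CPM with PBS (0.35, SE 0.09, adjusted p = 0.0426 by edgeR), and the log2 fold change was 0.24 against PBS replicate 3 alone.

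Of 75 tested proteins of the mitochondrial ribosome, 2 were higher and 1 was lower with the siRNA, where 2.62% of all genes were called, and 0 passed by edgeR in the other comparisons with PBS. At an unadjusted p under 0.05 they counted 13 to 18 of 75, where 14.7% to 20.1% of all genes had such a p. Mrpl18 (40.7, 35.7 and 38.4 CPM with the siRNA, against 22.8, 25.7 and 34.0 CPM with PBS) and Mrpl21 (42.2, 40.6 and 36.7 CPM with the siRNA, against 22.4, 26.6 and 36.6 CPM with PBS) each had a log2 fold change of 0.49, with adjusted p = 0.0285 and 0.0407 by edgeR. Mrpl39 had 30.0, 35.9 and 34.7 CPM with the siRNA, against 55.5, 44.4 and 37.6 CPM with PBS (−0.46, adjusted p = 0.0275). In all 3 PBS replicate 3 was nearest the treated libraries, and against it alone the log2 fold changes were 0.17, 0.12 and −0.15. The list as a whole had medians of 0.02 to 0.06 in the 5 comparisons with PBS. All 8 calls in the nuclear lists were lost without PBS replicate 1 or without PBS replicate 2 (adjusted p 0.0829 to 0.343 by edgeR) and all 8 held without PBS replicate 3 (at most 0.0113). Without a treated replicate, Rg9mtd1 passed with the siRNA in each case (adjusted p 0.0227 to 0.0493), and the other 7 calls were lost (0.0511 to 0.167). With the compared groups fitted alone all 8 were lost (adjusted p 0.0507 to 0.171 by edgeR), where calls over all genes numbered 1 to 7. With library totals as the scale 5 of the 8 were called, where 3546 to 4073 of 11153 genes were. Those of Rg9mtd1 and Mrpl39 were lost there, with Mrpl39 at −0.11.

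In the authors' deposited tables, which compare each treatment with PBS, 19 of the 37 genes are listed and 8 have an adjusted p. At an adjusted p under 0.05, the authors' deposited table for the siRNA has 5 of them lower: mt-Co1, mt-Rnr2, mt-Nd1, mt-Nd2 and mt-Nd4, where 5.33% of all genes with an adjusted p are lower. The authors' deposited tables for the TTR REVERSIR, the scrambled REVERSIR, siRNA + scrambled REVERSIR and siRNA + TTR REVERSIR have 3, 2, 2 and 1 lower, where 1.29%, 2.21%, 4.53% and 2.40% of all genes with an adjusted p are lower, and none of the 5 has a member higher. mt-Rnr2 is among them in each of the authors' deposited tables, with log2 fold changes of −0.25 to −0.23, and mt-Rnr1 has no p-value in any of them. Those fold changes, which look shrunken, are far from the −2.18 to −1.85 of mt-Rnr2 in the fit of the counts here.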

How the data were processed

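RNA of 18 hepatocyte libraries, 3 in each of 6 groups, was analysed. The authors deposited raw read counts per Ensembl gene for each library and a table for each treatment against PBS, with a mean normalised signal, log2 fold changes with their errors, a test score (the statistic) and p-values with adjusted p-values. Per the submitters' processing notes, STAR, DESeq2 and the build NCBIM37 were used; they give no counting tool, strand setting, read length or handling of reads with several matches. Reads are not collapsed to molecules, so intervals and floors cover counting error only.

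Symbols came from the NCBIM37 annotation for 37205 of 37991 genes and, for 49 more, from the authors' deposited tables. Mitochondrial shares were taken on all counts of a library. Differential expression was tested in R 4.3.3 with edgeR 4.0.16 (TMM scaling, expression filter by group, quasi-likelihood test on all 18 libraries with 12 residual degrees of freedom, Benjamini-Hochberg over 11153 genes, threshold 0.05), after the scripts had been tested on simulated data. DESeq2 1.42.0 was an alternative. Other alternatives were library totals as scale, no expression filter, scaling on nuclear genes, the compared groups alone, a replicate block and leaving out each library. Shares and ratios were tested on log2 values by exact permutation (scipy 1.17.1). Nuclear copies of the mitochondrial genome were found by windows of 50, 75 and 100 bases and by blastn 2.17.0 in the reference genome of the same build.

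The text names every mitochondrial gene with a count and every gene of the nuclear lists that passed the threshold. The members and the gene lists were chosen with earlier results of these data known. PBS replicate 3 as the only control, the ratio of both ribosomal RNAs, 2 of the 6 relations and the contrast of REVERSIR differences with and without the siRNA were chosen after seeing the data. For 1 library (siRNA + scrambled REVERSIR replicate 2) the name of the file carries another replicate number, and the title was followed. No libraries of the same group were duplicates by a chi-square test of their counts (lowest value per gene 2.24). Libraries of different groups were not compared in this way.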

Additional observations from a re-analysis of the deposited data

Results flagged for a closer look

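For the share of mitochondrial messenger RNA, the log2 difference of TTR REVERSIR over scrambled REVERSIR was 0.13 with the siRNA present (1.70%, 1.69% and 1.75% of counts with siRNA + TTR REVERSIR, against 1.51%, 1.66% and 1.55% with siRNA + scrambled REVERSIR). It was −0.14 without the siRNA (1.46%, 1.52% and 1.47% with the TTR REVERSIR, against 1.56%, 1.70% and 1.63% with the scrambled REVERSIR). In each state all libraries of one oligonucleotide lay on one side of the other's, and the sides were opposite, which is why the result is given here. Each of these 2 differences had exact permutation p = 0.1, the smallest possible, and adjusted p = 0.45. Per nuclear protein-coding count the groups without the siRNA overlapped (−0.13, exact permutation p = 0.2). The contrast, the difference between 0.13 and −0.14, was 0.27 on the log2 scale. It was chosen after the shares had been seen. A permutation p-value for the contrast would carry that choice, so none is given. Library totals also differed between these groups, and their part in the result was not tested.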

How the results depend on the processing

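Counts of mitochondrial genes called against PBS were 4, 0, 1, 0 and 0 with the siRNA, the scrambled REVERSIR, the TTR REVERSIR, siRNA + scrambled REVERSIR and siRNA + TTR REVERSIR, and values below keep that order. They were 2, 3, 3, 3 and 4 with library totals as the scale. Both ribosomal RNAs were called there in all 5 comparisons, and none of the messenger RNAs called in the main fit was. The others called there were mt-Tp with the scrambled REVERSIR and the TTR REVERSIR, mt-Nd6 in both combined groups, and mt-Cytb with siRNA + TTR REVERSIR. Counts were 5, 1, 3, 2 and 2 by DESeq2, and 8, 6, 9, 8 and 5 of 21 tested without the filter on low counts. They were 0, 2, 0, 1 and 0 with the compared groups alone. Scaling on nuclear genes gave 4, 0, 1, 0 and 0. Leaving out 1 library gave 0 to 8, 0 to 5, 0 to 9, 0 to 6 and 0 to 4, with the upper ends without PBS replicate 3. Without PBS, no filter gave 1 of 21 genes for siRNA + scrambled REVERSIR over siRNA, 3 for siRNA + TTR REVERSIR over siRNA, 1 for TTR REVERSIR over scrambled REVERSIR and 4 for siRNA + TTR REVERSIR over TTR REVERSIR, and every other setting gave 0. Over all genes, no filter called 33, 21, 42 and 35 of 20065 in these comparisons, in the order named. The cause of these changes was not tested.

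Over all genes the calls against PBS numbered 292, 47, 78, 68 and 88. They were 3835, 1576, 2880, 3546 and 4073 with library totals, which moved the median log2 fold change of all genes to 0.29 to 0.33, so fold changes on that scale read relative to this shift. They were 424, 186, 162, 213 and 230 by DESeq2, 677, 424, 498, 564 and 585 of 20065 genes without the filter, 0 to 7 with the compared groups alone, 0 to 5 without PBS replicate 1 or 2, and 749 to 1365 without PBS replicate 3. Among the nuclear lists, DESeq2 gave Tsfm no adjusted p.

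Correlations of the deviations of same-numbered libraries were −0.15 to 0.29, and in none of the 11 comparisons were all 3 above 0.1, so replicate numbers were not taken to pair samples. In siRNA + scrambled REVERSIR over siRNA they were 0.079 to 0.15 and all 3 numbers matched best with themselves, a hint from the data and not from the design. With the replicate number as a block, mitochondrial calls against PBS were again 4, 0, 1, 0 and 0, and those over all genes 248, 52, 55, 66 and 47.

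The ribosomal RNA share and the ratio to messenger RNA kept their direction in every setting, at −2.63 to −1.01 and −2.73 to −0.93 when 1 library was left out, but 3 against 3 libraries cannot pass 0.05, which says nothing on stability. The messenger RNA share against PBS turned to −0.19 (scrambled REVERSIR) and −0.12 (siRNA + TTR REVERSIR) per nuclear protein-coding count, and ran from −0.050 to 0.020 for siRNA + scrambled REVERSIR when 1 library was left out.

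Fold changes of single genes that turned round were none of the called ones. With library totals they were 0.12 for mt-Cytb with the siRNA, 0.12 for mt-Nd1, 0.019 for mt-Tw, 0.025 for mt-Co1 and 0.075 for mt-Nd4 with the scrambled REVERSIR, and 0.040 for mt-Tw and 0.074 for mt-Cytb with the TTR REVERSIR. They were 0.034 for mt-Nd1 and 0.21 for mt-Cytb with siRNA + scrambled REVERSIR, and 0.15 for mt-Nd1, 0.11 for mt-Nd2, 0.13 for mt-Tw, 0.089 for mt-Co1 and 0.15 for mt-Nd4 with siRNA + TTR REVERSIR. Against PBS replicate 3 alone they were 0.81 for mt-Ti and −0.32 for mt-Nd6 with the siRNA, and 0.11 for mt-Ti, 0.070 for mt-Co1, −0.25 for mt-Nd6 and −0.060 for mt-Cytb with the scrambled REVERSIR. With the TTR REVERSIR they were 0.17 for mt-Rnr2, 0.083 for mt-Ti and −0.33 for mt-Nd6, and with siRNA + scrambled REVERSIR 1.00 for mt-Ti and −0.021 for mt-Nd6. With siRNA + TTR REVERSIR they were 0.83 for mt-Ti, 0.062 for mt-Nd2, 0.099 for mt-Co1 and −0.030 for mt-Cytb. Leaving out 1 library turned mt-Ti (−0.97 to 0.42 with the siRNA, −0.78 to 0.61 with siRNA + scrambled REVERSIR, −0.95 to 0.43 with siRNA + TTR REVERSIR), mt-Tw with the scrambled REVERSIR (−0.64 to 0.20) and mt-Cytb (−0.036 to 0.12 with the scrambled REVERSIR, −0.0056 to 0.15 with siRNA + TTR REVERSIR). Depth limits the transfer RNA genes, with 21 to 132 counts per library.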
